A study of Mus musculus with 2 samples.

Results

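Cyp1a1, Cyp1b1, Tiparp and Ahrr, 4 of the 32285 genes in the deposited tables, were followed cell by cell in eYFP+ cells of mouse perigonadal white adipose tissue (gWAT). The genes were taken by symbol: the first pair encode cytochrome P450 enzymes of the CYP1 family, and the other two are feedback genes of the aryl hydrocarbon receptor (AHR). The cells came from the stromovascular fraction (SVF), the part of the tissue left when mature adipocytes are floated off, of male Cyp1a1 fate reporter mice (genotype Cyp1a1Cre x R26LSL-eYFP). In these mice, Cre driven by the Cyp1a1 promoter turns on eYFP permanently, which marks each cell whose promoter has been active at least once. The low-fat diet (LFD) held 10% and the high-fat diet (HFD) 60% fat, and either was fed for 12 weeks. Both groups were also given FICZ, a ligand of AHR, at 10 mg/kg, and tissue was taken 5 days later. Live (DAPI-) eYFP+ cells from pooled mice were sorted into 1 10x Genomics 3' v3 library per diet, with no vehicle group and no eYFP- cells. Every cell was therefore chosen by past activity of the Cyp1a1 promoter and every mouse had been given the ligand, so the levels below are those of the sorted cells and not of the tissue. Neither eYFP nor Cre was a row of the tables. Whether transcripts of the Cre allele are counted in the Cyp1a1 row is not given in the sources used here, and every Cyp1a1 value below carries that limit.

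The quality limits (500 to 40000 UMIs, under 12.5% mitochondrial UMIs) kept 10218 of 11281 LFD barcodes and 8545 of 9631 HFD barcodes, and 17173 cells remained after cells with under 100 genes and likely doublets had been removed. A UMI is 1 tagged RNA molecule. The median cell had 10213.5 UMIs in LFD and 12709 in HFD. Cells were grouped by clustering without the 4 genes, and clusters were named with the suffix -like from marker lists. The endothelial-like class held 661 LFD and 605 HFD cells, the stromal-like class 5906 and 4001 (adipose progenitor, mesothelial and proliferating clusters), and the immune-like class 2657 and 3113. The marker levels that follow come from the same lists that named the clusters, so they describe the classes and do not check the names. The 8 endothelial markers together stood at 7239 and 9345 CPM (UMIs of a gene per 1000000 UMIs of the summed cells) in endothelial-like cells against 45.0 and 70.0 in stromal-like and 88.9 and 49.1 in immune-like cells. Each diet had a single library and no replicate, so diet and library cannot be told apart and no test was made. All intervals are exact 95% intervals that cover counting error only, and the limit given where a count is 0 is the level of 3 counts.

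AHR is a transcription factor that lies in the cytoplasm until a ligand binds it. It then enters the nucleus, pairs with ARNT and binds xenobiotic response elements, whose core is GCGTG, next to its target genes. Cyp1a1 is its classical target, and the enzyme clears many AHR ligands, FICZ among them. Cyp1b1, the other enzyme, is also an AHR target but is expressed in mesenchymal cells without added ligand. Tiparp, an ADP-ribosyltransferase, and Ahrr, the AHR repressor, are both induced by AHR and act back on it.

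The promoters of the 4 genes are shown to mark where this core sequence lies near each start. Sites farther from the start were not searched. Each is the RefSeq sequence (GRCm38.p6) from 250 bases before to 50 bases after the annotated start, written 5′ to 3′ on the strand of the gene, with the core in capitals as GCGTG or, where it lies on the opposite strand, as CACGC. They span chr9:57697363-57697662 (+ strand) for Cyp1a1, chr17:79715012-79715311 (- strand) for Cyp1b1, chr3:65528197-65528496 (+ strand) for Tiparp and chr13:74292282-74292581 (- strand) for Ahrr.
Cyp1a1: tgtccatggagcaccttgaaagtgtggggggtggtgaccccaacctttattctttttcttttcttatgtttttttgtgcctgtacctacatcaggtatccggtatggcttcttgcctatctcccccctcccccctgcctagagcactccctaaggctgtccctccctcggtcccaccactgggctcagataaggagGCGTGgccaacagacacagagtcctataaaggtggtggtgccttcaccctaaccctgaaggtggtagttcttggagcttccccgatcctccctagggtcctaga
Cyp1b1: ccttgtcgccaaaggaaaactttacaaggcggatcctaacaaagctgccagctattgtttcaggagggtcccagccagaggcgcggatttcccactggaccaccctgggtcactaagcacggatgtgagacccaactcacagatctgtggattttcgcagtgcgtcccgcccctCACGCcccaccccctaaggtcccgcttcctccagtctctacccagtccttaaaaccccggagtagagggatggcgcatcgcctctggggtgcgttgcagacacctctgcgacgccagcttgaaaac
Tiparp: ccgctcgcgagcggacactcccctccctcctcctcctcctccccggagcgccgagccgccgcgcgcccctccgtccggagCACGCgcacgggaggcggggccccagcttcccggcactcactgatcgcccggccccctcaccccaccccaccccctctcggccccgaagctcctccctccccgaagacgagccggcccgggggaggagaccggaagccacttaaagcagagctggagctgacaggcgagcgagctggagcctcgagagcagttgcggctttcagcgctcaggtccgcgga
Ahrr: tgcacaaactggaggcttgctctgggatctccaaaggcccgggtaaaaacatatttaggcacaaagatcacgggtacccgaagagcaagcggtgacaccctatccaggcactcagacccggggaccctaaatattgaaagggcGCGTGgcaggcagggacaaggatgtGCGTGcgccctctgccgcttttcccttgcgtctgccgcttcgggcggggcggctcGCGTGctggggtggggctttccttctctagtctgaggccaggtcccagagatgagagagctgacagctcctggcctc

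All 4 windows held the core. The Cyp1a1 window held 1 match, 54 bases before the start, the Cyp1b1 window 1 match 76 bases before it on the opposite strand, and the Tiparp window 1 match 170 bases before it on the opposite strand. Ahrr had 3 matches, 107, 82 and 27 bases before its start. Of 32851 promoter windows of the same length, 32.4% held at least 1 match on either strand and 3.91% at least 3, so the letters alone are common. A match is a description of the sequence and not a measured binding site.

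Cyp1a1 (ENSMUSG00000032315, chr9:57687928-57703824 in GRCm38) was concentrated in the endothelial-like cells. They made up 7.11% of LFD and 7.68% of HFD cells and held 72.3% and 53.4% of each library's Cyp1a1 UMIs. Their LFD level was 593 CPM (569 to 618) and their HFD level 671 CPM (639 to 704), against 8.26 (7.63 to 8.92) and 17 (16 to 18) in stromal-like cells and 12.4 (10.7 to 14.3) and 4.96 (4.20 to 5.83) in immune-like cells. Cyp1a2, the neighbouring paralogue, had 1 UMI in the endothelial-like cells of each library, so nearly all reads of the pair were assigned to Cyp1a1.

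Below the endothelial-like cells, the order of the cell types for Cyp1a1 opened with mural-like cells (pericytes and smooth muscle), at 459 CPM in 12 LFD cells (323 to 633) and 394 CPM in 71 HFD cells (339 to 455), and the LFD interval overlapped that of the endothelial-like cells. The mural-like cells also carried the 8 endothelial leak markers used below at 59.6% and 70.8% of their endothelial-like level, beside 77.4% and 58.7% for Cyp1a1 itself. Neutrophil-like cells came next at 191 CPM (141 to 253) from 49 LFD UMIs and 57.3 CPM (18.6 to 134) from 5 HFD UMIs. In the rest, the LFD order ran from 22.7 CPM in the T/ILC-like cluster led by Cd3d (T cells or innate lymphoid cells) through 17 in proliferating B-like, 14.5 in B-like, 14.1 in the T/ILC-like cluster led by Il5, 11.4 in mesothelial-like, 9.23 in macrophage-like, 7.77 in proliferating stromal-like, 6.30 in Ereg-led stromal-like, 6.27 in dendritic cell-like and 5.80 in progenitor-like cells to 2.86 in proliferating plasma cell-like and 0.977 in plasma cell-like cells. Each interval in that run overlapped the next. In HFD, 4 types had overlapping intervals at the head of this run, at 22.7 in Cd3d-led T/ILC-like, 21.5 in B-like, 21.4 in proliferating stromal-like and 20.4 in mesothelial-like cells, and the plasma cell-like clusters were again lowest at 1.17 and 0.625.

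Cyp1b1 (ENSMUSG00000024087, chr17:79701537-79715061) had the opposite distribution. Stromal-like cells held 98.5% of its UMIs in both libraries, at 742 CPM (736 to 748) for LFD and 891 (884 to 898) for HFD. Endothelial-like cells stood at 105 (94.5 to 115) and 119 (106 to 133) and immune-like cells at 26.4 (23.9 to 29.2) and 16.2 (14.8 to 17.7). Within the stroma, the LFD order was progenitor-like at 986 CPM, Ereg-led at 804, mesothelial-like at 703 and proliferating at 633, with no overlap of neighbouring intervals. The HFD order differed, with Ereg-led first at 1018, followed by mesothelial-like at 860, progenitor-like at 803 and proliferating at 786, the last pair overlapping. Mural-like cells stood at 198 and 69.9 CPM, and the small unnamed cluster, of 58 LFD and 89 HFD shallow cells (medians of 1024 and 963 UMIs), stood at 477 (342 to 647) and 900 (728 to 1101). No immune-like cluster was above 62.4 CPM, the LFD level of neutrophil-like cells from 16 UMIs.

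Tiparp (ENSMUSG00000034640, chr3:65528410-65555518) was present in all 3 classes. It stood at 226 CPM (223 to 230) and 317 CPM (313 to 321) in stromal-like cells, 104 (94.0 to 115) and 101 (88.9 to 114) in endothelial-like cells, and 107 (101 to 112) and 91.2 (87.8 to 94.7) in immune-like cells. Among immune-like cells, macrophage-like cells (202 and 187 CPM) and dendritic cell-like cells (182 and 219) stood above plasma cell-like cells (66.5 and 56.5), with no overlap of the intervals. The highest cluster of the HFD library was the Il5-led T/ILC-like cluster at 371 CPM (316 to 434), whose interval overlapped that of the Ereg-led stromal-like cells at 362 (354 to 370).

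Ahrr (ENSMUSG00000021575, chr13:74211118-74292331) was low in every class. Endothelial-like cells stood at 19.2 CPM (15 to 24.1) in LFD and 18.3 (13.4 to 24.4) in HFD, stromal-like cells at 14.9 (14 to 15.7) and 19.2 (18.2 to 20.3), and immune-like cells at 9.99 (8.45 to 11.7) and 3.92 (3.25 to 4.70). The immune-like average hid a wide split. Dendritic cell-like cells (46.4 and 22.8 CPM) and macrophage-like cells (33.3 and 18.7) were at or above the stroma, whereas B-like cells stood at 1.88 and 4.11. Plasma cell-like cells had no Ahrr UMI in LFD, which allows up to 1.47 CPM, and 3 UMIs (0.318 CPM) in HFD.

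**Figure D1:**
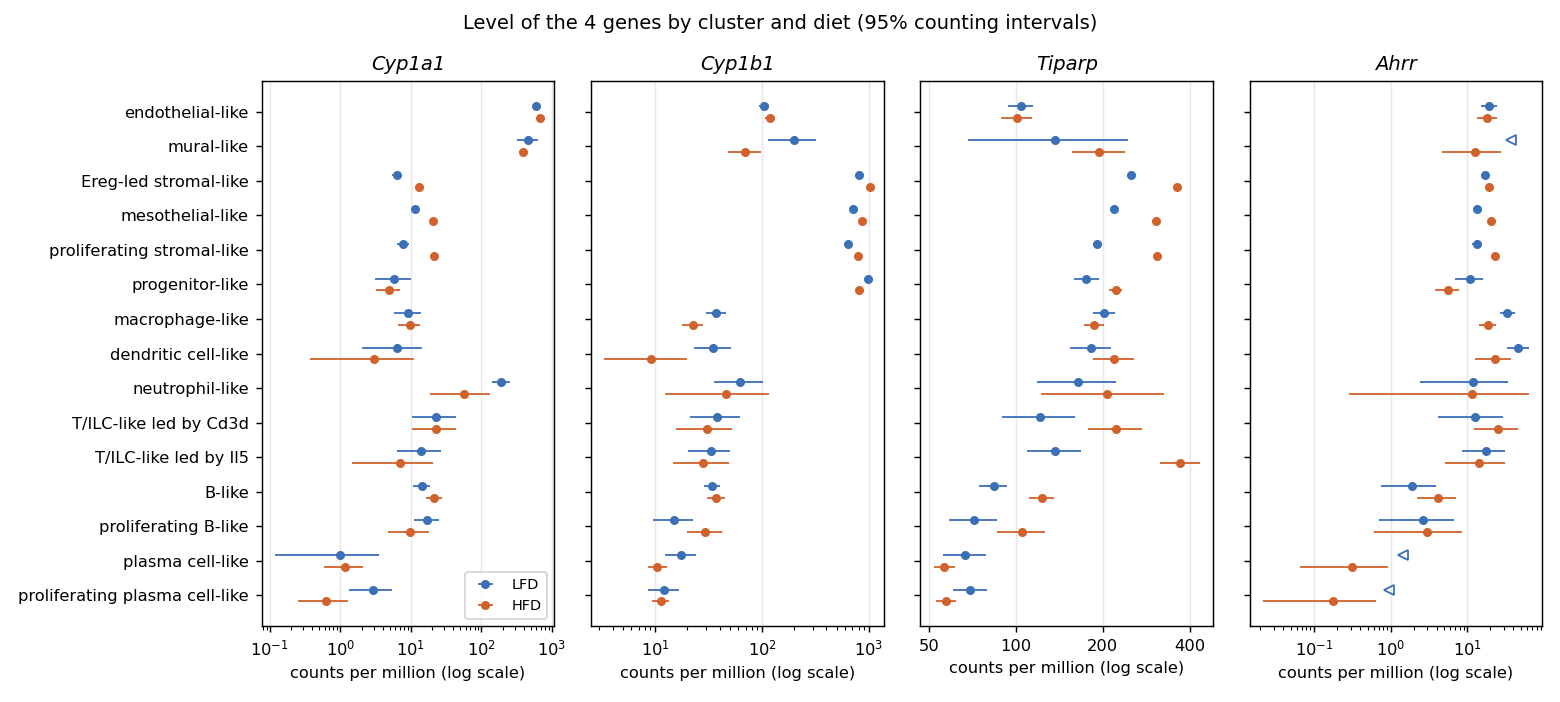
Level of each gene (CPM of summed UMIs, log axis) in each named cell type for LFD and HFD, with exact 95% Poisson intervals of the counts; open triangles mark the level of 3 counts where a library had none. Cyp1a1 peaks in endothelial-like and mural-like cells, Cyp1b1 in the stromal-like clusters, Tiparp spreads over most types, and Ahrr is at most 46.4 CPM, in LFD dendritic cell-like cells.

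Because deep cells show a given gene more often, each cell was thinned to 2000 UMIs before shares were compared, which left out 188 LFD and 169 HFD endothelial-like cells, 20 and 40 stromal-like cells and 347 and 205 immune-like cells. Among thinned endothelial-like cells, 55.6% in LFD (51.0 to 60.1; 263 of 473 cells) and 51.8% in HFD (47.0 to 56.6; 226 of 436) had a Cyp1a1 UMI. In stromal-like cells the share was 1.29% (1.02 to 1.61) and 2.10% (1.67 to 2.59), and in immune-like cells 2.34% (1.76 to 3.04) and 1.38% (0.984 to 1.87). Plasma cell-like cells, taken as a type with little Cyp1a1 after their values were seen, gave 0 of 194 LFD cells, which allows a share of up to 1.55%, and 2 of 755 HFD cells (0.265%). Their proliferating cluster gave 0 of 198 and 0 of 609 cells, which allows up to 1.52% and 0.493%. Unthinned, the shares were 72.9% and 63.5% in endothelial-like, 5.11% and 8.77% in stromal-like, 3.73% and 2.79% in immune-like, and 1.02% and 1.43% in plasma cell-like cells, whose median depth was 10319 and 11722 UMIs.

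The shares of the other 3 genes at this depth followed their levels. Cyp1b1 was seen in 69.9% and 76.3% of stromal-like, 20.3% and 19.3% of endothelial-like and 5.19% and 3.85% of immune-like cells. Tiparp was seen in 35.5% and 42.4%, 18.2% and 16.5%, and 19.4% and 18.5% of the same classes. Ahrr did not exceed 4.23%, its share in LFD endothelial-like cells, in any class.

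The way Cyp1a1 was spread over single cells differed between the classes. In endothelial-like cells, 318 of 661 LFD and 236 of 605 HFD cells had 3 or more Cyp1a1 UMIs, with a maximum of 28 and 33. In stromal-like cells, 94.9% of LFD and 91.2% of HFD cells had none, yet single cells reached 14 and 34 UMIs. The 71 LFD and 120 HFD stromal-like cells with 3 or more UMIs, 1.2% and 3% of the class, held 57.8% and 74.1% of its Cyp1a1 UMIs. The variance of the stromal-like counts was 4.39 and 8.58 times their mean, against 1 for independent counts at 1 rate and 4.69 and 5.16 in endothelial-like cells. High stromal-like cells occurred in each large cluster, with a maximum of 12 and 25 UMIs in Ereg-led, 14 and 34 in mesothelial-like and 14 and 19 in proliferating cells, but not above 4 and 7 in progenitor-like cells. In plasma cell-like cells no cell had more than 1 UMI.

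RNA released by endothelial cells, or an endothelial cell caught with another, would carry Cyp1a1 together with other endothelial transcripts. The 8 endothelial leak markers (Cldn5, Cdh5, Emcn, Tie1, Ptprb, Flt1, Kdr and Sox18) were therefore measured in the other classes as a percentage of their endothelial-like level. In stromal-like cells they stood at 0.215% in LFD and 0.168% in HFD, with a highest single marker, Sox18, of 1.61% and 0.702%, against 1.39% and 2.53% for Cyp1a1. In B-like cells the markers stood at 0.182% and 0.104%, against 2.44% and 3.20% for Cyp1a1. Macrophage-like cells were different, with markers at 1.47% and 1.28% and Cyp1a1 at 1.56% and 1.43%. Neutrophil-like cells, the shallowest named cluster with a median of 1264 and 1021.5 UMIs, had markers at 17% and 8.46% and Cyp1a1 at 32.2% and 8.53%.

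The markers were then counted in single cells. Of stromal-like cells with a Cyp1a1 UMI, 10.3% in LFD (7.08 to 14.3) and 14.2% in HFD (10.8 to 18.3) also had a UMI of any endothelial leak marker, beside 9.46% and 12.2% of stromal-like cells without Cyp1a1. Among those with 3 or more Cyp1a1 UMIs the shares were 15.5% (8 to 26.0) and 16.7% (10.5 to 24.6). The mean number of marker UMIs per cell differed more, at 0.480 with and 0.123 without Cyp1a1 in LFD and 0.370 and 0.198 in HFD. In thinned stromal-like cells the markers were 2.81 times (0.751 to 7.39) and 1.97 times (0.525 to 5.20) higher beside Cyp1a1, both intervals including 1, and their part in the stromal-like co-detection was not tested. Cells with no such marker held 86.9% and 88.9% of the stromal-like Cyp1a1 UMIs, and an LFD cell with 14 UMIs and an HFD cell with 34 were among them, whereas the proliferating LFD cell with 14 UMIs was not. In B-like cells the shares were 5.88% and 5.26% with Cyp1a1 and 3.41% and 3.22% without. In macrophage-like cells they were 83.3% (10 of 12) and 72.7% (8 of 11) with Cyp1a1, against 6.06% and 8.49% without. Neutrophil-like cells gave 12 of 14 LFD cells and the only HFD cell with Cyp1a1.

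Outside the stroma, Cyp1b1 was set against 10 stromal leak markers in the same way. Those markers stood at 2.67% and 1.84% of their stromal-like level in endothelial-like cells, with no single marker above 3.28% and 2.86%, against 14.1% and 13.4% for Cyp1b1. In immune-like cells they stood together at 2.55% and 1.14%, below the 3.56% and 1.82% of Cyp1b1. The highest single marker there was Krt18 at 9.36% and 9.23%, which also stood at 26.4% in LFD plasma cell-like cells where the markers together were at 1.55%. The part of stromal RNA in the immune-like Cyp1b1 level was not tested. Tiparp at 47.1% and 28.8% and Ahrr at 67.2% and 20.4% of their stromal-like level were far above the markers there.

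Co-detection was then counted within each class at 2000 UMIs per cell. The number of cells with a UMI of Cyp1a1 and of a second gene was divided by the number expected if the 2 genes were detected independently of each other inside each cluster. The interval is that of the observed count. As 1 thinning draw is partly random, the mean over all possible draws is given as well, without an interval.

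In endothelial-like cells all 3 partners were seen more often beside Cyp1a1. Cyp1b1 was detected in 26.6% of LFD cells with Cyp1a1 (21.4 to 32.4) and 12.4% of those without (8.25 to 17.6), and in 26.5% (20.9 to 32.8) and 11.4% (7.46 to 16.5) in HFD, so the intervals were apart in both libraries. The observed number was 1.31 times the expected one in LFD (1.02 to 1.66) and 1.38 times in HFD (1.05 to 1.77), and 1.34 and 1.38 times over all draws. Tiparp was detected in 22.1% and 13.3% of LFD cells with and without Cyp1a1, whose intervals overlapped, and in 22.6% and 10.0% of HFD cells, whose intervals did not. Its ratio was 1.21 (0.921 to 1.57) in LFD and 1.37 (1.02 to 1.80) in HFD, and 1.24 and 1.26 over all draws. Ahrr was detected in 17 of 263 LFD cells with Cyp1a1 (6.46%) and in 1.43% of those without, and in 12 of 226 HFD cells (5.31%) and in 0.952%. With so few cells its ratios of 1.53 (0.891 to 2.45) and 1.65 (0.854 to 2.89) were not distinguishable from 1, and over all draws they were 1.32 and 1.49.

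Measured in UMIs per thinned cell rather than in detected cells, Cyp1b1 was 2.40 times (1.58 to 3.72) and 2.49 times (1.63 to 3.89) higher in endothelial-like cells with a Cyp1a1 UMI, and Tiparp 1.62 times (1.08 to 2.45) and 1.95 times (1.24 to 3.12). Ahrr was 3.39 times (1.11 to 13.9) and 5.58 times (1.24 to 51.3) higher on this measure, from UMIs in few cells. Stromal leak markers in the same thinned cells stood at 1.67 UMIs per cell with and 1.30 without Cyp1a1 in LFD (1.28 times, 1.10 to 1.49), and at 1.10 and 1.2 in HFD (0.918 times, 0.767 to 1.10). Immune leak markers stood at 0.198 and 0.162 in LFD (1.22 times, 0.778 to 1.94) and at 0.288 and 0.419 in HFD (0.686 times, 0.490 to 0.957). None of the 4 genes was seen in 33.6% of LFD and 37.8% of HFD endothelial-like cells, all 4 were seen in 1 and 3 cells, and 56.3% and 57.1% of the cells with Cyp1a1 had none of the other 3.

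In stromal-like cells, Cyp1b1 is so frequent that co-detection had little room to vary. It was seen in 77.6% of LFD and 95.2% of HFD cells with Cyp1a1, against 69.8% and 75.9% of those without, from 76 and 83 cells with Cyp1a1. Over all draws the shares were 82.0% and 84.6%, so the HFD draw was a high one. Its ratios of observed to expected cells were 1.12 (0.852 to 1.44) and 1.25 (0.988 to 1.56), neither apart from 1. Those intervals take no account that the count cannot pass the number of cells with Cyp1a1. The intervals of the shares overlapped in LFD (66.6 to 86.4 and 68.6 to 71.0). In HFD they were apart in that high draw (88.1 to 98.7 and 74.5 to 77.2). In UMIs per thinned cell, Cyp1b1 was 1.45 times (1.23 to 1.69) and 1.64 times (1.44 to 1.87) higher beside Cyp1a1, against 1.28 times (0.930 to 1.72) and 1.21 times (0.921 to 1.55) for Tiparp and 1.36 times (0.277 to 4.03) and 3.07 times (1.37 to 6) for Ahrr. Tiparp gave ratios of 1.12 (0.753 to 1.59) and 1.14 (0.819 to 1.55), and 1.26 and 1.16 over all draws. Ahrr was seen with Cyp1a1 in 3 LFD and 8 HFD cells, 1.41 (0.290 to 4.11) and 2.39 (1.03 to 4.71) times the expected number, and 2.04 and 1.69 times over all draws. With doublets kept, the HFD ratio in the draw fell below 1.

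Immune-like cells had 54 LFD and 40 HFD thinned cells with a Cyp1a1 UMI. Tiparp was seen in 35.2% (22.7 to 49.4) and 42.5% (27.0 to 59.1) of them, against 19.0% and 18.2% of the others, with ratios of 1.83 (1.10 to 2.85) and 1.68 (0.977 to 2.68). Cyp1b1 gave 2.68 (1.28 to 4.93) from 10 cells in LFD and 1.54 (0.418 to 3.93) from 4 cells in HFD, and Ahrr was seen with Cyp1a1 in 1 cell of each library, with ratios of 0.767 (0.0194 to 4.28) and 1.21 (0.0307 to 6.75). Over all draws the LFD and HFD ratios were 1.82 and 1.85 for Tiparp, 2.21 and 2.45 for Cyp1b1, and 1.80 and 2.61 for Ahrr. The Ahrr values rested on a mean of 2.39 and 1.70 cells with both genes. At 5000 UMIs per cell the ratios over all draws were 1.55 and 1.18 for Tiparp, 1.78 and 1.91 for Cyp1b1, and 2.81 and 2.00 for Ahrr. Endothelial leak markers moved with Cyp1a1 in this class, at 2.74 against 0.0576 UMIs per thinned cell in LFD and 1.02 against 0.0286 in HFD. Stromal leak markers stood at 1.32 times (1.08 to 1.59) in LFD and 1.33 times (0.950 to 1.82) in HFD their level in cells without Cyp1a1. The part of either set of markers in these ratios was not tested. The B-like cells, with their proliferating cluster, showed the Tiparp pattern by themselves: 13 of 31 LFD cells with Cyp1a1 (41.9%, 24.5 to 60.9) had Tiparp against 13.8% of the others, and 8 of 21 HFD cells (38.1%, 18.1 to 61.6) against 18.4%. The ratios were 2.88 (1.53 to 4.93) and 2.00 (0.864 to 3.94). No B-like cell in the draw had both Cyp1a1 and Ahrr, but over all draws the Ahrr ratios were 7.26 and 5.85. Counted on all UMIs, 7 of 31 LFD cells with 1 Cyp1a1 UMI had Ahrr, at 46.6 CPM (18.7 to 96.0), against 0.798 CPM (0.218 to 2.04) in cells with none, and 3 of 26 HFD cells, at 20.3 (4.18 to 59.2) against 2.83 (1.41 to 5.07). Among B-like cells with 2 and with 3 or more Cyp1a1 UMIs, 0 of 11 and 0 of 5 LFD cells and 1 of 12 and 1 of 7 HFD cells had Ahrr. The thinned B-like cells with Cyp1a1 held no endothelial leak marker UMI, but so few cells leave a ratio of up to 6.02 in LFD and 14.7 in HFD open to counting error. Their stromal leak markers stood at 1.21 times (0.923 to 1.56) and 0.980 times (0.603 to 1.51) their level in the others.

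Over all draws, the 18 ratios of 3 partners, 3 classes and 2 libraries ran from 1.12 for Cyp1b1 in HFD stromal-like cells to 2.61 for Ahrr in HFD immune-like cells. That highest ratio rested on a mean of 1.70 cells with both genes. How often other genes reach such ratios of observed to expected cells was not computed. Cells are not replicates, so this describes 2 libraries.

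**Figure D2:**
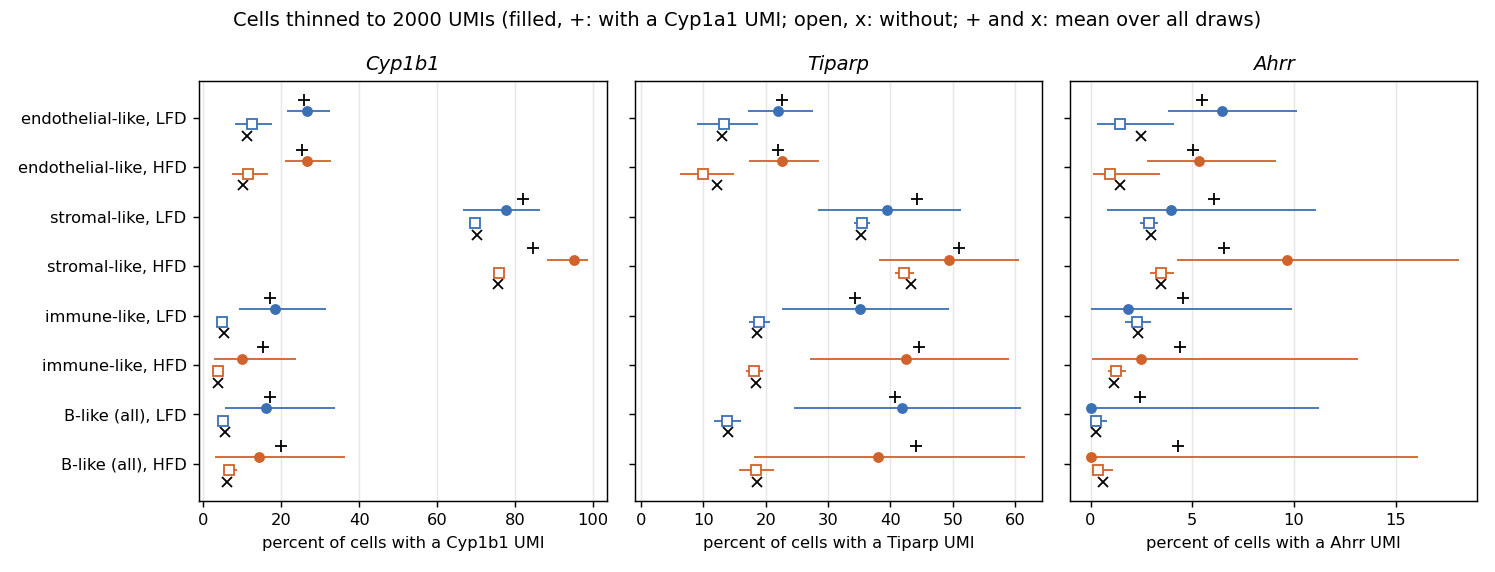
Percent of cells, thinned to 2000 UMIs, in which Cyp1b1, Tiparp or Ahrr had a UMI, among cells with (filled circles) and without (open squares) a Cyp1a1 UMI, for LFD (blue) and HFD (orange); bars are exact 95% binomial intervals and + and x are means over all thinning draws. An example of a gap is Cyp1b1 in endothelial-like cells (26.6% against 12.4% in LFD), and the single draw for Cyp1b1 in HFD stromal-like cells (95.2%) lies above its mean of 84.6%.

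Counted on all UMIs of a cell, the partners were higher in endothelial-like and stromal-like cells with 3 or more Cyp1a1 UMIs than in those with none. In endothelial-like cells, Cyp1b1 stood at 47.3 CPM in LFD cells with no Cyp1a1 UMI (34.7 to 63.1) and 127 CPM (113 to 144) in those with 3 or more, and at 46.9 (33.8 to 63.4) and 180 (156 to 207) in HFD. Tiparp stood at 53.5 and 126 CPM in LFD and 52.5 and 140 in HFD, and Ahrr at 8.23 and 24.7 and at 3.35 and 30.1. In none of these did the interval for no UMI overlap that for 3 or more. The levels did not climb at each step, since LFD cells with 2 Cyp1a1 UMIs stood at 161 CPM for Cyp1b1, 185 for Tiparp and 35.4 for Ahrr, all above those with 3 or more, with overlapping intervals. In stromal-like cells the same pairs of values were 728 and 1142 CPM in LFD and 871 and 1087 in HFD for Cyp1b1, 223 and 314 and 311 and 420 for Tiparp, and 14.2 and 36.8 and 18.2 and 36 for Ahrr, again with no overlap. Cells with 3 or more Cyp1a1 UMIs were also deeper, with medians of 4884 against 3998 and 3359 against 2778 UMIs in endothelial-like cells and 14804 against 12363 and 20073 against 16352.5 in stromal-like cells. CPM divides by that depth. Immune-like cells with 3 or more Cyp1a1 UMIs were few, 17 in LFD and 12 in HFD. Cyp1b1 and Tiparp were higher in them than in cells with none, with no overlap of the intervals, but for Ahrr the intervals overlapped. Endothelial leak markers were present in 11 of these 17 LFD and 6 of these 12 HFD cells, at means of 10.1 and 10.8 UMIs, against 4.89% and 5.88% of the cells without Cyp1a1, at 0.0954 and 0.110 UMIs, and their part in these levels was not tested. B-like cells with 3 or more were only 5 in LFD and 7 in HFD. Among them Ahrr in LFD was at 0 CPM (0 to 113), against 0.798 in cells with none. Cyp1b1 in HFD was at 23.2 CPM (0.588 to 129) from 1 UMI, against 28.8. Neither could be told apart from the level in cells with none.

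**Figure D3:**
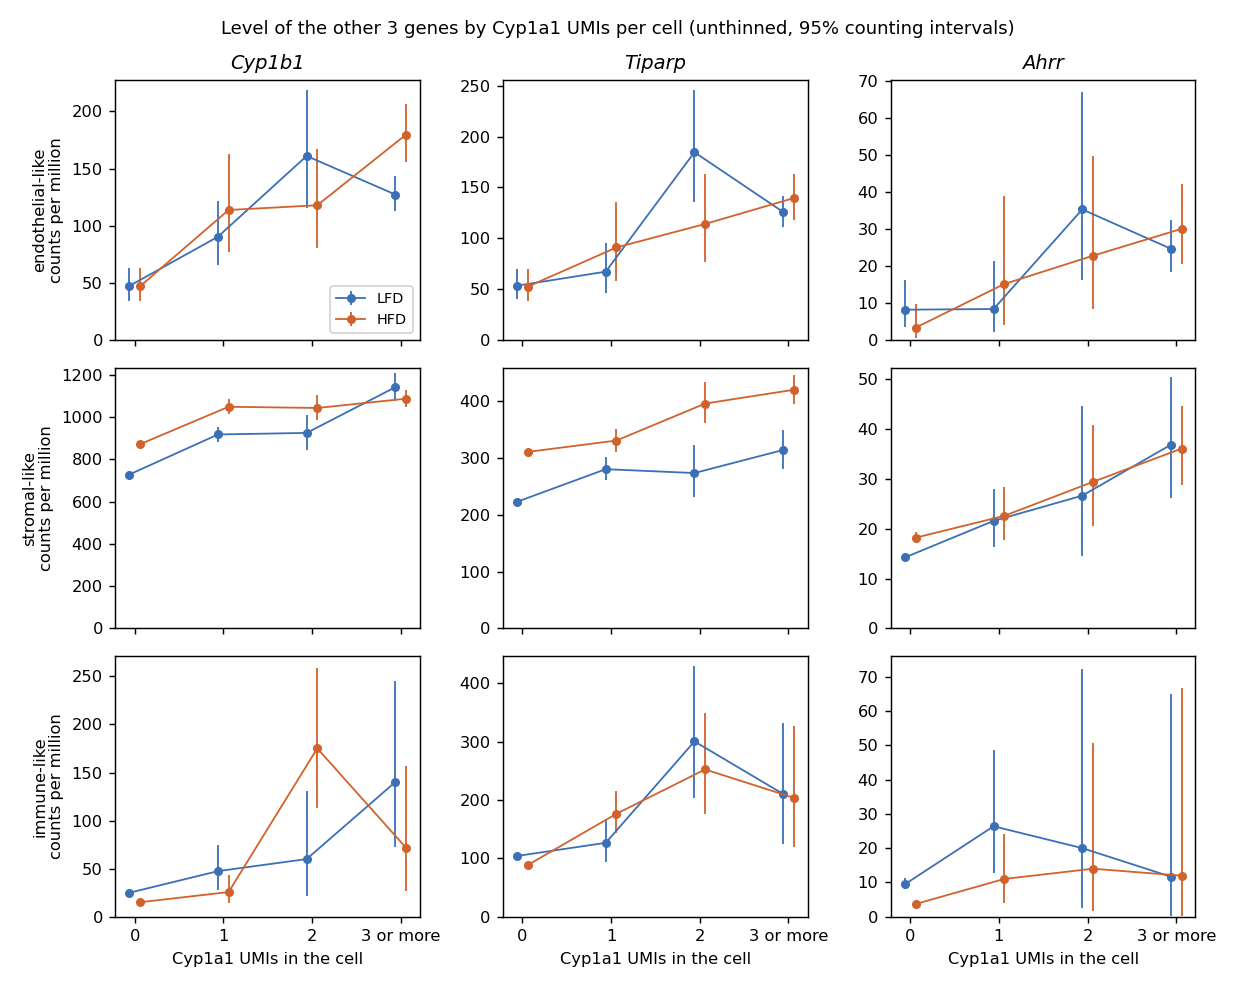
Level (CPM of summed UMIs) of Cyp1b1, Tiparp and Ahrr in endothelial-like, stromal-like and immune-like cells grouped by the number of Cyp1a1 UMIs in the cell, for LFD and HFD, with exact 95% Poisson intervals. In the endothelial-like and stromal-like classes the cells with 3 or more Cyp1a1 UMIs lie above those with none, for example Ahrr at 36.8 against 14.2 CPM in LFD stromal-like cells.

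The same comparison of detected shares was made for every gene seen in at least 5% of thinned endothelial-like cells, as the background for the members. A gene was called where its share was at least 1.5 times higher, or lower, in cells with Cyp1a1 in both libraries. Of 4934 genes, 2.96% were called higher and 1.58% lower, and the median ratio of a gene was 1.03 in LFD and 1.01 in HFD. Cyp1b1, at rank 12, and Tiparp, at rank 77, were both called higher, with log2 ratios of 1.10 and 1.22 and of 0.73 and 1.17 in LFD and HFD. Ahrr was below the limit of 5% and was not compared. Nqo1, a quinone reductase that AHR also induces, had log2 ratios of 0.58 and 1.52 and just missed the call in LFD. At 1000 UMIs per cell, where 48 genes were called higher and 38 lower, neither Cyp1b1 nor Tiparp was called, and over all draws at that depth their ratios were 1.85 and 1.88 and 1.43 and 1.5.

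The 8 genes with the highest ratios were Eci1 (a mitochondrial enzyme of fatty acid oxidation), Gm12216, Ptger4 (a prostaglandin E2 receptor), Slc6a6 (the taurine transporter), Sema3g (a semaphorin of arterial endothelium), Endou, Plscr4 (a phospholipid scramblase) and Enah (a regulator of actin). Slc6a6 was the most frequent of them, in 28.1% of LFD and 41.2% of HFD cells with Cyp1a1 and 11.4% and 11.9% of those without. Those with the lowest ratios included Apln (apelin, made by sprouting tip cells), Cd276, Kit (the stem cell factor receptor), Dpysl3, Oaf, Prnd and Igfbp3 (which binds insulin-like growth factors). Apln was detected in 7.6% of LFD and 5.31% of HFD cells with Cyp1a1, against 25.2% and 21.0% of those without. Endothelial leak markers were themselves higher in endothelial-like cells with Cyp1a1, at a mean of 30.7 against 24.1 UMIs per unthinned cell in LFD and 34.4 against 26.7 in HFD, and their part in these ratios was not tested.

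**Figure D4:**
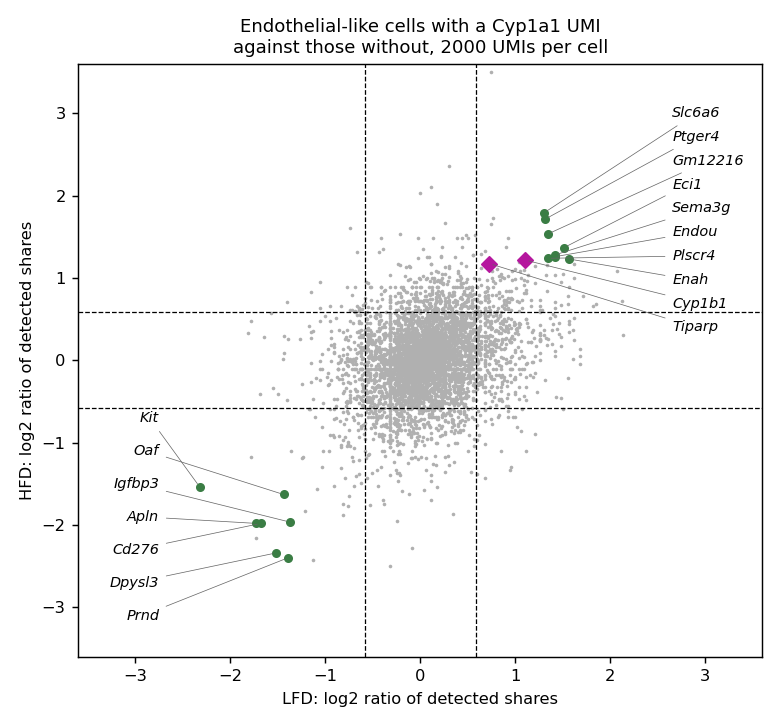
Log2 ratio of the share of thinned endothelial-like cells in which a gene was detected, cells with against cells without a Cyp1a1 UMI, in LFD (x axis) and HFD (y axis), for 4934 genes; values beyond 3.5 either way are drawn at 3.5 and dashed lines mark 1.5 times. Cyp1b1 and Tiparp (diamonds) lie among the 2.96% of genes past the upper line in both libraries, and green points are the named genes at either end.

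Stromal-like cells, compared in the same way with a choice made after the endothelial-like result was known, gave 4616 genes, of which 0.997% were called higher. Tiparp was not called. Cyp1b1 could not be, since its share in cells without Cyp1a1 was already 69.8% and 75.9%.

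The endothelial-like cells could be split by vessel segment only in part. Of 661 LFD and 605 HFD cells, 401 and 350 had at least 2 genes of the capillary list alone (Rgcc, Gpihbp1, Car4, Cd36 and Fabp4), 255 and 248 met several lists, and only 1 and 2 cells of each library met the arterial and the venous list alone, so arterial and venous segments could not be compared. Cyp1a1 was detected at matched depth in 52.7% (46.2 to 59.2) and 44.5% (37.8 to 51.4) of the capillary cells, and in 58.4% (51.8 to 64.8) and 59.2% (52.3 to 65.8) of those that met several lists, with no overlap of the intervals in HFD. The levels had opposite orders in the libraries, at 650 CPM in capillary and 543 in several-list cells in LFD and 585 and 742 in HFD. Several-list cells were deeper, with medians of 6718 and 3897.5 against 2592 and 2331 UMIs.

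Between diets, all 4 members stood higher in the HFD stromal-like cells taken as 1 class. The Cyp1a1 level was 2.05 times that of LFD (1.86 to 2.27), while Cyp1b1 was 1.2 times (1.19 to 1.21), Tiparp 1.40 times (1.37 to 1.43) and Ahrr 1.29 times (1.19 to 1.40) higher, against a median of 1.08 over 15560 genes. Taking a ratio of 1.5 either way as the mark, 1 of 4 members, Cyp1a1, was higher and none was lower, beside 11.1% and 6.38% of all genes compared. The Cyp1a1 ratio was 2.10 in Ereg-led, 1.79 in mesothelial-like and 2.75 in proliferating cells, but 0.838 (0.422 to 1.76) in progenitor-like cells, from 13 and 29 UMIs. That cluster also had Cyp1b1 at 0.815 times (0.775 to 0.857) and Ahrr at 0.516 times (0.296 to 0.913), lower in HFD, and Tiparp at 1.26 times (1.13 to 1.42). The proliferating cells also had the highest stromal-like ratios for Tiparp, 1.61 (1.54 to 1.69), and Ahrr, 1.72 (1.44 to 2.06).

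In endothelial-like cells the members hardly differed between diets. Cyp1a1 was 1.13 times (1.06 to 1.21) and Cyp1b1 1.14 times (0.978 to 1.33) as high in HFD, and Tiparp and Ahrr 0.970 (0.825 to 1.14) and 0.953 times (0.644 to 1.40), against a median of 1.11 over 10763 genes. No member passed 1.5 times, beside 19.6% of genes higher and 8.83% lower. As the mean of each cell's own CPM the Cyp1a1 ratio was 0.960, on the other side of 1, and in the 24 LFD and 65 HFD cells with no marker of another class it was 2.35, past the mark.

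In immune-like cells 3 of the 4 members were lower in HFD by more than the mark, Cyp1a1 at 0.401 times (0.321 to 0.500), Cyp1b1 at 0.614 (0.537 to 0.703) and Ahrr at 0.393 (0.306 to 0.504), while Tiparp was at 0.856 (0.804 to 0.911). Of 13191 genes, 23.9% were lower and 5.68% higher, and the median ratio was 0.823. The make-up of the class also differed between the libraries. The plasma cell-like clusters, the lowest of the class in Cyp1a1 and Ahrr in both libraries, had 196 and 199 cells in LFD and 767 and 612 in HFD. Without those clusters the ratios were 0.795 for Cyp1a1, 0.859 for Cyp1b1, 0.8 for Ahrr and 1.33 for Tiparp, and no member was past the mark. The part of the make-up in the ratios was not tested. In the 100 LFD and 279 HFD cells with no marker of another class, Ahrr and Tiparp were instead higher in HFD, while Cyp1a1 stayed lower. Markers of other classes were also lower in HFD immune-like cells. Endothelial leak markers stood at 36.5 and 19.2 CPM, or 0.727% and 0.253% of their endothelial-like level, beside 2.09% and 0.740% for Cyp1a1, and stromal leak markers at 747 and 318 CPM. Their part in the ratios was not tested. Within clusters, the ratios differed in direction. B-like cells had Cyp1a1 at 1.48 times (1.02 to 2.16) and Tiparp at 1.47 times (1.26 to 1.71), while proliferating B-like cells had Cyp1a1 at 0.574 (0.247 to 1.23), Cyp1b1 at 1.95 (1.09 to 3.51) and Tiparp at 1.47 (1.11 to 1.93). Neutrophil-like cells had Cyp1a1 at 0.3 (0.0931 to 0.748), and proliferating plasma cell-like cells at 0.218 (0.0690 to 0.658). Dendritic cell-like cells had Cyp1b1 at 0.259 (0.0878 to 0.638) and Ahrr at 0.491 (0.250 to 0.916), plasma cell-like cells had Cyp1b1 at 0.597 (0.404 to 0.900), macrophage-like cells had Cyp1b1 at 0.602 (0.439 to 0.823) and Ahrr at 0.561 (0.398 to 0.786), and Tiparp was 2.72 times (2.08 to 3.58) higher in the Il5-led and 1.83 times (1.28 to 2.66) higher in the Cd3d-led T/ILC-like cells.

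The other genes of the pathway were taken from a list of 14. In stromal-like cells, 3 of 13 with enough counts were past 1.5 times higher and none lower: Nqo1 at 2.89 times (2.72 to 3.06), Aldh3a1, an aldehyde dehydrogenase, at 2.02 times (1.52 to 2.69), and Ugt1a6b, a glucuronosyltransferase, at 2.17 times (1.17 to 4.17) from 17 and 32 UMIs. The receptor itself, Ahr, was at 0.970 (0.902 to 1.04) and its partner Arnt at 1.11 (1.05 to 1.18). In endothelial-like cells 1 of 10 was past the mark, Arnt at 1.58 (1.2 to 2.09), and Nqo1 was at 1.05 (0.830 to 1.31). In immune-like cells none of 11 was higher and 2 were lower, Nqo1 at 0.528 and Ugt1a6a at 0.451. The median ratio of the list was 1.09 in stromal-like, 1.01 in endothelial-like and 0.708 in immune-like cells, beside 1.08, 1.11 and 0.823 over all genes. For the counts, the shares of all genes past the mark were 11.1% higher in stromal-like, 19.6% higher in endothelial-like and 23.9% lower in immune-like cells, so the last pair of counts did not exceed the background.

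The likeness of the 4 genes over the cell types ranged widely. Across 29 points (each a cluster of at least 30 cells in 1 library, with some such clusters not among them), the correlation of log2(CPM + 1) was 0.785 between Tiparp and Ahrr, 0.607 between Cyp1b1 and Tiparp, 0.437 between Cyp1a1 and Ahrr, 0.425 between Cyp1b1 and Ahrr, 0.175 between Cyp1a1 and Cyp1b1 and 0.139 between Cyp1a1 and Tiparp. The points share libraries and clusters, and the values are descriptive. Of 13108 genes with at least 200 counts, those most like Cyp1a1 included Ablim3 (r = 0.912), Snrk, Rflnb and Ralgapa1. Those most like Cyp1b1 were Aebp1 (0.969), Vcam1, Wt1, Colec12 and Cdh11. For Tiparp they were Tnrc18 (0.899), Fbxo33, Nr4a3, Acsl4 and Nr4a2, and for Ahrr Slk (0.925), Slc25a24, Vopp1, Map4k4 and Hpcal1.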

How the data were processed

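The deposited matrices gave UMI counts, not normalized, for each gene and barcode, which the authors made with Cell Ranger 4.0.0 on the mm10 genome, per the submitters' processing notes. The deposited barcode and feature lists named their columns and rows. The annotation release is not given in the sources used here, and 32158 of 32285 gene identifiers were found in GENCODE M21 (GRCm38), from which gene positions were taken. The genes and lists were chosen with earlier results of these data known.

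Cells with at least 100 genes, 500 to 40000 UMIs and under 12.5% mitochondrial UMIs were kept. Doublets were scored with Scrublet (scanpy 1.11.5), and the highest scores were removed at 0.8% per 1000 barcodes, 9.03% of LFD and 7.71% of HFD cells. Scrublet's automatic threshold marked 3.44% and 3.91%. The libraries shared 27 barcodes. Libraries were integrated in Seurat 5.3.0 on 1995 variable genes, without the 4 members and the pathway list, and clustered on 30 principal components at resolution 0.3. A cluster was named where at least 3 markers and at least 50% of a list were detected in 10% of its cells at over 2 times the median cluster. The cluster led by Ereg took its class from progenitor markers, none of which was among its 10 leading genes. A small cluster (58 LFD and 89 HFD cells) was left without a name.

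Counts were summed per type and given as CPM with exact Poisson intervals, shares with exact (Clopper-Pearson) binomial intervals, and ratios with exact conditional binomial intervals. Each cell was thinned to 2000 UMIs without replacement (seed 1) for shares and co-detection. Diet ratios of all genes needed 20 UMIs in the libraries together, and likeness needed 200 counts. The calculations were tested on simulated data. Named genes were the members, the pathway list, the 5 genes most like each member and the 8 at each end of the endothelial-like comparison, ranked by the library nearer to a ratio of 1. Of these, 2 genes are not reported here. The alternatives were other depths, draws, scalings, class definitions, cell filters and doublets kept. Those added after the data were seen were leaving out neutrophil-like or plasma cell-like clusters, co-detection in single clusters, the stromal-like comparison, the mean over all draws and the leak markers in cells with and without Cyp1a1.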

Additional observations from a re-analysis of the deposited data

Results flagged for a closer look

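With 1 library per diet, the differences below between cell types in the HFD to LFD ratio could not be tested. They are listed because the counting intervals of the 2 ratios lay on opposite sides of 1. Cyp1b1 was at 1.27 times (1.24 to 1.29) in Ereg-led stromal-like cells and 0.602 times (0.439 to 0.823) in macrophage-like cells, a quotient of 2.10. Tiparp was at 1.61 times in proliferating stromal-like cells and 0.825 times (0.706 to 0.966) in proliferating plasma cell-like cells, a quotient of 1.96. Ahrr was at 1.72 times in proliferating stromal-like cells and 0.561 times in macrophage-like cells, a quotient of 3.07. In macrophage-like cells the RNA of other classes also differed between the libraries, with stromal leak markers at 3.81% of their stromal-like level in LFD and 1.31% in HFD, beside 5.03% and 2.52% for Cyp1b1, and its part in the Cyp1b1 ratio was not tested.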

How the results depend on the processing

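No paired analysis was possible because each diet had 1 library. Of 176 alternative values for the shares of cells with a member, 86 stayed within the counting interval of the reported value and 90 moved beyond it, mostly with depth. At 1000 UMIs per cell the Cyp1a1 shares in LFD and HFD were 43.7% and 44.9% of endothelial-like, 0.813% and 1.30% of stromal-like and 1.17% and 0.622% of immune-like cells. At 5000 UMIs they were 65.6% and 59.4%, 2.90% and 4.45%, and 3.45% in LFD immune-like cells. Without thinning they were 72.9% and 63.5%, 5.11% and 8.77%, and 3.73% and 2.79%. The HFD immune-like share was 1.99% with doublets kept. Classes drawn from Pdgfra, Ptprc or Pecam1 gave 46.4% and 46.1% for endothelial-like and 0.879% for HFD immune-like cells. Cells with no marker of another class were few outside the stroma (9 and 36 endothelial-like, 76 and 233 immune-like cells at matched depth) and gave 33.3% and 69.4% for endothelial-like and 1.32% and 2.58% for immune-like cells.

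Of 80 alternative diet ratios, 46 stayed within the interval, 28 moved and 6 crossed 1, counted only for reported ratios whose interval lay to 1 side of 1. The endothelial-like Cyp1a1 ratio of 1.13 was 0.960 as a mean of per-cell CPM, 1.02 under median-ratio scaling, 1.05 with classes from the 3 genes and 2.35 in cells with no marker of another class. The stromal-like Cyp1a1 ratio of 2.05 was 1.85 as a mean of per-cell CPM. The immune-like Cyp1a1 ratio of 0.401 was 0.585 in cells with no other marker, 0.231 under the stricter cell filter, 0.518 without the neutrophil-like cluster and 0.795 without plasma cell-like cells. In the same class Tiparp crossed to 1.01 as a mean of per-cell CPM, 1.05 under median-ratio scaling, 1.41 in cells with no other marker and 1.33 without plasma cell-like cells, and Ahrr to 1.13 in cells with no other marker. The causes were not tested.

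Of 158 alternative co-detection ratios, 145 stayed within the interval, 11 moved and 2, of reported ratios whose interval lay above 1, fell below 1. These were Cyp1b1 in LFD endothelial-like cells, at 0 among the 9 cells with no marker of another class, and Ahrr in HFD stromal-like cells, at 0.740 with doublets kept. In such marker-free cells Tiparp in LFD endothelial-like, Ahrr in LFD stromal-like and Cyp1b1 in HFD immune-like cells were also at 0, from reported intervals that included 1. At 1000 UMIs Ahrr was at 0.763 in LFD endothelial-like cells and at 0 in LFD stromal-like cells and in immune-like cells of both libraries. With classes from the 3 genes, immune-like Ahrr was at 0 in both libraries. Another seed gave 1.62 for Tiparp in LFD stromal-like and 7.01 for Ahrr in HFD immune-like cells, both outside the reported intervals. The endothelial-like comparison called 48 genes higher and 38 lower at 1000 UMIs, against 146 and 78, with 21 and 13 of them shared and fewer genes (2844) tested. The 20 genes most like the members were the same with a minimum of 50 counts. Ahrr in particular was too rare for its co-detection to be read. The mean over all draws takes out the randomness of thinning but rests on the same few cells and has no interval.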
